A study of Mus musculus with 15 samples.

Results

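The gasdermins are a family of genes whose proteins can form pores in membranes, and 8 of them are described here in mouse conjunctiva: Gsdmc, Gsdmc2, Gsdmc3, Gsdmc4, Gsdma, Gsdma2, Gsdma3 and Gsdmd. They were found by symbol among the 55487 genes listed in the count table. The set was chosen from earlier results of the same 15 libraries, in which Gsdmc genes differed between the groups. Differences between groups in these 8 genes are therefore given as descriptions. Where adjusted p-values or calls of these genes are printed, nothing is read from them. All 8 had enough counts to enter the fit, although Gsdmc3 did so through the group in which it was high.

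Conjunctival RNA came from 3 groups of WT female mice, given as strain BALC/c in the labels and aged 9 to 12 weeks, with 5 libraries each. Every group had first been sensitized through the skin with OVA, a model antigen, together with MC903, a vitamin D analog that inflames the skin, so that no group was free of sensitization. Over 7 days that ended on day 24, the eyes received PBS in one group, the PBS group, and OVA in the others, which were given an antibody at 25 mg/kg, either Isotype (isotype group) or Anti-IL-4ra, which blocks the shared receptor chain of IL-4 and IL-13 (blockade group, anti-IL-4Ra in the plots). The antibody of the PBS group is entered as N/A, so the effects of OVA and of isotype antibody cannot be told apart in isotype against PBS.

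A gasdermin protein is held inactive by its own C-terminal part until a protease cuts it, after which the N-terminal part inserts into membranes and forms a pore. Pores made by Gsdmd, the member cut by inflammatory caspases, release IL-1 family cytokines and can end in the lytic cell death called pyroptosis. The other members described here are known mainly from epithelia, Gsdma from skin and its glands and the Gsdmc genes from the intestine, where IL-4 and IL-13 are known to raise them.

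The 4 Gsdmc genes lie side by side on the minus strand of chromosome 15 in GRCm38, from Gsdmc (chr15:63775968-63808759) through Gsdmc2 (chr15:63824346-63845177) and Gsdmc3 (chr15:63857724-63878558) to Gsdmc4 (chr15:63891264-63912297). Gsdmd lies apart on the plus strand of the same chromosome (chr15:75862327-75867408). The 3 Gsdma genes form a row on the plus strand of chromosome 11, Gsdma3 (chr11:98626360-98638226), Gsdma2 (chr11:98646759-98657964) and Gsdma (chr11:98664351-98677708). All are annotated as protein coding, and every value below is a count over the exons of a whole gene.

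The Gsdmc genes are so alike that reads can be hard to assign, and the first 90 coding bases of the GENCODE transcripts are shown because they let a reader see it. Capitals mark bases that differ from Gsdmc at the same position.
Gsdmc: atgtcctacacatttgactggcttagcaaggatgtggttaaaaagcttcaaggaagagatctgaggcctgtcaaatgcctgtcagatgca
Gsdmc2: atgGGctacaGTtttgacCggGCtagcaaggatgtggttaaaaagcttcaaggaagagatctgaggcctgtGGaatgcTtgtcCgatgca
Gsdmc3: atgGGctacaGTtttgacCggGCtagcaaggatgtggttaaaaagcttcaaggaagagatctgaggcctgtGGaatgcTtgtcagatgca
Gsdmc4: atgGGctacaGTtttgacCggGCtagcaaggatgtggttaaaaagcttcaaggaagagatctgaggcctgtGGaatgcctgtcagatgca
Over this stretch Gsdmc2 differed from Gsdmc at 11 bases, Gsdmc3 at 10 and Gsdmc4 at 9. Over the whole aligned coding sequence, Gsdmc2 and Gsdmc3 were 97.1% identical and each was 93.8% identical to Gsdmc4. Gsdmc stood further off, at 87.0% to 87.5% identity with the other 3 genes of its cluster, and at 56.0% to 58.2% with the Gsdma genes and Gsdmd. Gsdma and Gsdma2 were 90.9% identical.

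A stretch as long as 1 read, 90 bases, was shared exactly with another Gsdmc gene at 8.40% of the positions in Gsdmc transcripts, 32.9% in Gsdmc2, 31.4% in Gsdmc3 and 23.2% in Gsdmc4. Only 2.20% of the positions in Gsdma were shared, all with Gsdma2, and none in Gsdma3 or Gsdmd. The deposited estimates were fractional for Gsdmc4 and Gsdma in 15 of 15 libraries, for Gsdmc, Gsdmc2 and Gsdma2 in 14, for Gsdmc3 in 12 and for Gsdma3 in 10, whereas Gsdmd was whole in all. How reads were divided among these near copies is not given in the sources used here, so the separate levels of Gsdmc2, Gsdmc3 and Gsdmc4, and the low levels of Gsdmc3 in particular, are uncertain.

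Gsdmc was the most abundant gene of its cluster, and its RNA was higher in every isotype library than in any library of the other groups. In the PBS group it stood at 24.5, 11.5, 14.7, 12.7 and 8.19 CPM in replicates 1 to 5, where CPM is counts per 1000000 normalized counts of a library. In the isotype group the levels were 50.8, 86.5, 126.0, 64.3 and 102.5 CPM. Under blockade they were 7.65, 5.76, 7.30, 8.24 and 7.42 CPM. The lowest isotype library was above the highest PBS library, and the blockade libraries lay at or below the low end of the PBS range, with an overlap at the PBS library of 8.19 CPM. The means were 14.3 ± 6.16 (SD, n = 5), 86.0 ± 29.9 and 7.27 ± 0.920 CPM. The fitted log2 fold change was 2.59 (SE 0.29) for isotype against PBS, which is 6.01-fold higher, and -3.57 (SE 0.30) for blockade against isotype, which is 11.8-fold lower.

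Gsdmc2, the next gene along the cluster, had the same order of groups over a wider span. The PBS libraries held 1.89, 0.913, 0.871, 0.984 and 0.591 CPM. The isotype libraries held 10.3, 16.8, 52.9, 14.4 and 36.6 CPM. The blockade libraries held 0.244, 0.230, 0.264, 0.621 and 0.302 CPM, from only 11 to 25 counts each. The isotype group did not overlap either of the others, and 1 blockade library, replicate 4, reached into the PBS range. The log2 fold change was 4.63 (SE 0.49) for isotype against PBS and -6.35 (SE 0.55) for blockade against isotype.

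Gsdmc3 was close to undetected outside the isotype group. Its counts were 10, 3, 2, 6 and 3 in the PBS libraries, 38, 90, 168, 86 and 185 in the isotype libraries, and 0, 1, 2, 0 and 0 under blockade. Each isotype library held more counts than any PBS library. Each PBS library had a higher CPM than any blockade library, but replicate 3 of both groups rounded to 2 counts, so the margin between them was small. Over the groups, 567 counts in isotype against 24 in PBS gave a depth-adjusted ratio of 22.1 (95% interval 14.7 to 34.7). The 567 counts against 3 under blockade gave a ratio of 157 (95% interval 53.5 to 764), and 24 in PBS against those 3 gave 7.12 (95% interval 2.16 to 36.9). These intervals cover counting error only, not the spread between libraries.

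Gsdmc4 kept the same order at low levels. It was measured at 0.911, 0.459, 0.294, 0.462 and 0.367 CPM in PBS, at 1.67, 2.46, 3.55, 1.60 and 3.21 CPM in isotype, and at 0.155, 0.160, 0.220, 0.259 and 0.310 CPM under blockade. All isotype libraries were again above all others, and a single blockade library, replicate 5, overlapped the lowest PBS library. The log2 fold change was 2.31 (SE 0.31) for isotype against PBS and -3.53 (SE 0.34) for blockade against isotype.

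**Figure D1:**
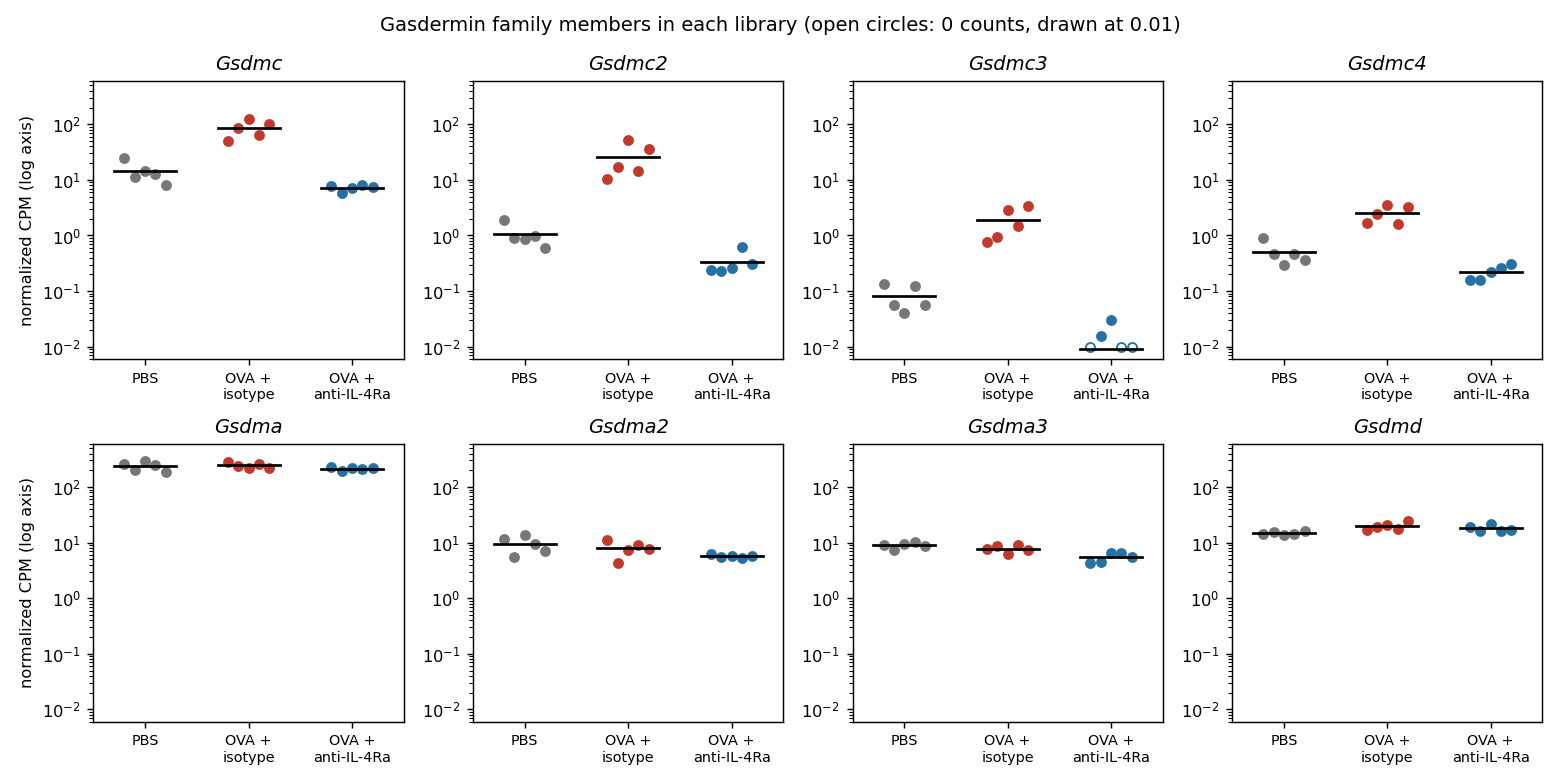
Normalized CPM (log axis) of the 8 gasdermin genes in each of 5 libraries per group, with a black line at the group mean and open circles for libraries with 0 counts. The 4 Gsdmc genes in the upper row are higher in all 5 isotype libraries than in the PBS and blockade libraries, while the Gsdma genes and Gsdmd in the lower row span a smaller range.

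Of the Gsdma genes, Gsdma and Gsdma2 overlapped between all groups, and Gsdma3 was lower under blockade than in PBS. Gsdma, the most abundant gasdermin in every library, was measured at 264, 198, 290, 245 and 184 CPM in PBS, at 285, 234, 222, 263 and 224 CPM in isotype, and at 227, 197, 215, 208 and 216 CPM under blockade. The 3 groups overlapped in every pairing, and the PBS group alone spanned most of the range. The log2 fold change was 0.06 (SE 0.11) for isotype against PBS and -0.21 (SE 0.11) for blockade against isotype, and the first of these changed sign, to -0.02, in a fit with 1 library left out.

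Gsdma2, which lies between Gsdma3 and Gsdma on the chromosome, was far lower than Gsdma. Its levels were 11.7, 5.59, 13.6, 9.63 and 7.05 CPM in PBS, 11, 4.33, 7.49, 9.15 and 7.66 CPM in isotype, and 6.29, 5.55, 5.66, 5.18 and 5.70 CPM under blockade. The PBS and isotype libraries were intermixed, and the blockade libraries lay together near the lower end of both. The log2 fold change was -0.27 (SE 0.24) for isotype against PBS and -0.48 (SE 0.25) for blockade against isotype.

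Gsdma3 was measured at 9.01, 7.32, 9.31, 10.4 and 8.54 CPM in PBS, at 7.60, 8.73, 6.19, 9.07 and 7.49 CPM in isotype, and at 4.28, 4.43, 6.58, 6.40 and 5.46 CPM under blockade. All blockade libraries were below all PBS libraries, and they overlapped the isotype group at a single library, isotype replicate 3. The log2 fold change was -0.19 (SE 0.14) for isotype against PBS, -0.53 (SE 0.14) for blockade against isotype and -0.71 (SE 0.14) for blockade against PBS. The group means were 8.91 ± 1.13 CPM in PBS, 7.82 ± 1.14 CPM in isotype and 5.43 ± 1.07 CPM under blockade (SD, n = 5).

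Gsdmd, the member best known from inflammatory cells and caspase signaling, was moderately higher in both OVA-challenged groups than in PBS. It was measured at 14.1, 15.6, 13.6, 14.1 and 16.2 CPM in PBS, at 17.1, 19.3, 20.9, 17.5 and 24.2 CPM in isotype, and at 19.3, 16.5, 22.0, 16.4 and 16.9 CPM under blockade. Every library of both OVA-challenged groups was above every PBS library, as in 6.85% of all genes for isotype and 2.98% for blockade, and the OVA-challenged groups overlapped each other. The log2 fold change was 0.43 (SE 0.10) for isotype against PBS, 0.31 (SE 0.10) for blockade against PBS and -0.12 (SE 0.10) for blockade against isotype. Of these, only isotype against PBS passed an adjusted p under 0.05 in edgeR. Blockade against PBS did not (adjusted p = 0.1001), although it passed in DESeq2 (adjusted p = 0.0446). On data simulated for isotype against PBS, 42 of 230 calls by DESeq2 were false, against 6 of 194 by edgeR. Blockade against PBS was not simulated, so these counts do not decide between the tools there. Nothing is read from the Gsdmd calls, because the members were chosen from these contrasts. In order, Gsdmd, Gsdma and the Gsdmc genes thus gave 3 patterns in the same libraries: above PBS in every library of both OVA-challenged groups, overlapping in all groups, and high in the isotype group alone.

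Counts of members that passed an adjusted p under 0.05 are given here against the share of all 19006 genes tested, and nothing is read from them because the members were chosen from these contrasts. For isotype against PBS, 5 of the 8 members were called higher and 0 lower, where 9.53% of all genes were called higher and 7.49% lower. The 5 were the Gsdmc genes and Gsdmd, and in these 5 all isotype libraries were above all PBS libraries, as in 6.85% of all genes. For blockade against isotype, 5 of the 8 were called lower, the Gsdmc genes and Gsdma3, and 0 higher, where 8.13% of all genes were called lower and 6.73% higher. All blockade libraries were below all isotype libraries in the 4 Gsdmc genes, as in 4.97% of all genes. The call for Gsdma3 was lost in fits without isotype replicate 2 or 5 or without blockade replicate 1, 2 or 5, with only 2 groups fitted (adjusted p = 0.07095) and with a score of lacrimal acinar (tear gland) markers as covariate (adjusted p = 0.0927).

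The blockade and PBS groups were nearer to each other. The fitted log2 fold change of blockade against PBS was -0.98 (SE 0.28) for Gsdmc, -1.72 (SE 0.52) for Gsdmc2, -2.62 (SE 0.91) for Gsdmc3 and -1.22 (SE 0.35) for Gsdmc4. Among the other members it was -0.15 (SE 0.11) for Gsdma and -0.75 (SE 0.25) for Gsdma2, besides the values given above for Gsdma3 and Gsdmd. A single member, Gsdma3, was called, and lower, where 1.44% of all genes were called lower and 2.28% higher. All blockade libraries were below all PBS libraries in Gsdma3, as in 3.13% of all genes. Gsdmc3 met this in CPM by a small margin. PBS replicate 3 and blockade replicate 3 both rounded to 2 counts, at 0.0401 and 0.0304 CPM. The 3 comparisons share libraries and are not independent of one another. The Gsdma3 call was lost without PBS replicate 1 or 4 or blockade replicate 1, 2 or 5, and with the lacrimal score (adjusted p = 0.0927). DESeq2 called 7 of the 8 members in this comparison, where edgeR called 1. The share of all genes that DESeq2 called was not taken, so the 7 cannot be set against it. On data simulated for isotype against PBS, a larger part of the DESeq2 calls than of the edgeR calls was false. Blockade against PBS was not simulated, so that result cannot be carried over to it.

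**Figure D2:**
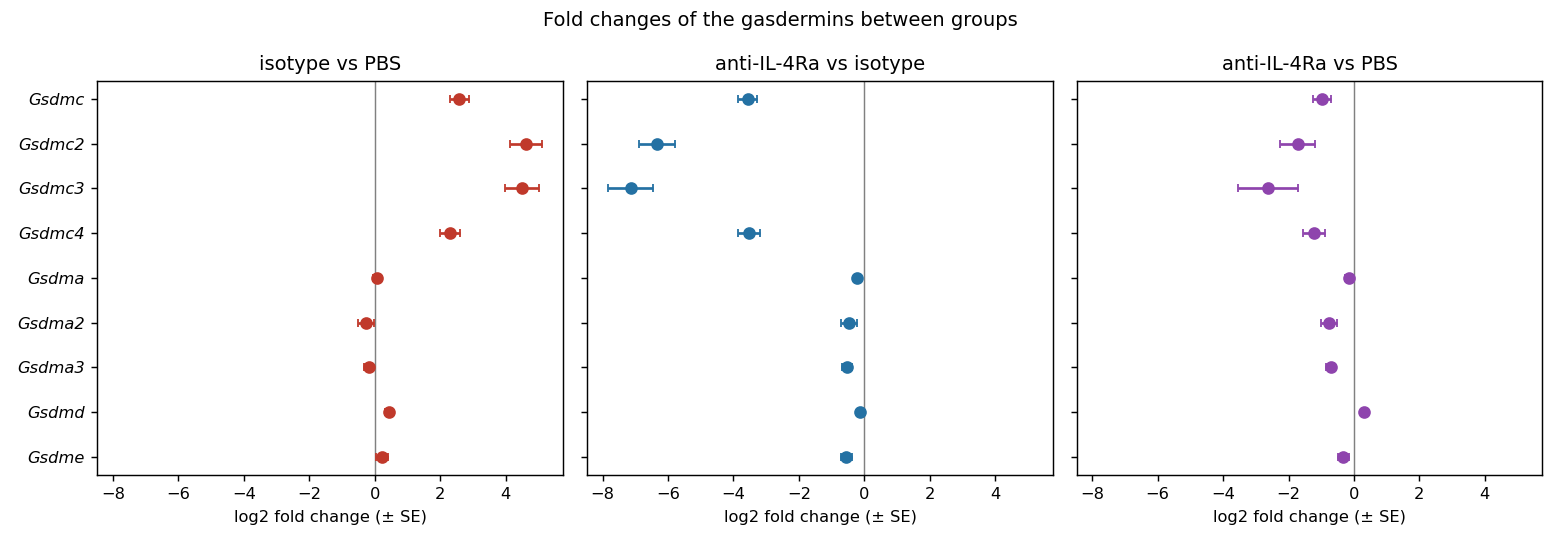
Fitted log2 fold change with its standard error (horizontal axis) of the 8 members and Gsdme in the 3 comparisons of 5 against 5 libraries. Gsdmc, Gsdmc2, Gsdmc3 and Gsdmc4 lie between 2.31 and 4.63 for isotype against PBS and between -7.14 and -3.53 for blockade against isotype, while the other genes lie within 0.55 of 0 in both.

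To compare levels between genes, counts were divided by exon length and library size (FPKM, fragments per kilobase of exon and per 1000000 normalized counts). In the PBS group Gsdma led by far at 86.7 ± 16.4 FPKM (SD, n = 5), followed by Gsdmd at 6.19 ± 0.467, Gsdmc at 5.95 ± 2.56, Gsdma3 at 5.52 ± 0.697 and Gsdma2 at 3.09 ± 1.07 FPKM. Gsdmd, Gsdmc and Gsdma3 overlapped there and have no clear order among them, and Gsdma2 overlapped Gsdmc. Gsdmc2 at 0.453 ± 0.213, Gsdmc4 at 0.239 ± 0.115 and Gsdmc3 at 0.0351 ± 0.0184 FPKM were the lowest, with an overlap between the first pair.

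In the isotype group Gsdmc at 35.8 ± 12.4 FPKM and Gsdmc2 at 11.3 ± 7.80 FPKM came next after Gsdma at 90.1 ± 10.1 FPKM. Gsdmc2, at 4.43 to 22.9 FPKM, overlapped Gsdmd, at 8.32 ± 1.21 FPKM, and Gsdma3, at 4.84 ± 0.705 FPKM. Gsdma2 had 2.57 ± 0.797, Gsdmc4 1.20 ± 0.422 and Gsdmc3 0.803 ± 0.494 FPKM, each overlapping the next. Under blockade, Gsdma had 77.9 ± 4.09, Gsdmd 7.66 ± 1.02, Gsdma3 3.36 ± 0.663 and Gsdmc 3.02 ± 0.383 FPKM, and the last 2 overlapped. Gsdma2 followed at 1.84 ± 0.130 FPKM. Gsdmc2 and Gsdmc4, at 0.143 ± 0.0708 and 0.106 ± 0.0316 FPKM, overlapped each other, and Gsdmc3 was at 0.00395 ± 0.00586 FPKM.

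As a share of the FPKM of all 8 members, the Gsdmc cluster made up 6.05% ± 1.88 (SD, n = 5) in PBS, 31.1% ± 10.8 in isotype and 3.48% ± 0.414 under blockade. The isotype libraries ran from 18.2% to 44.7%, above the highest PBS library at 9.28%. Gsdma alone made up 80.0%, 58.8% and 82.9% in the same order of groups, although its own levels overlapped between groups. The isotype group was the most variable: its highest library, replicate 3, held 78.2 FPKM of Gsdmc cluster RNA and its lowest, replicate 1, held 26.7.

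Within the cluster the make-up differed between groups as well. Gsdmc2 was 6.76% ± 0.657 of the cluster's FPKM in PBS, 21.2% ± 5.94 in isotype and 4.28% ± 1.57 under blockade. The log2 ratio of Gsdmc2 to Gsdmc, taken on CPM, was -3.78 ± 0.17 in PBS, -1.91 ± 0.51 in isotype and -4.55 ± 0.48 under blockade. The isotype libraries, from -2.36 to -1.25, did not overlap the others, whereas the PBS and blockade libraries did. The log2 ratio of Gsdmc4 to Gsdmc was -4.86 ± 0.45, -5.11 ± 0.15 and -5.08 ± 0.38, overlapping in all groups. These ratios depend on how reads were divided among near copies.

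**Figure D3:**
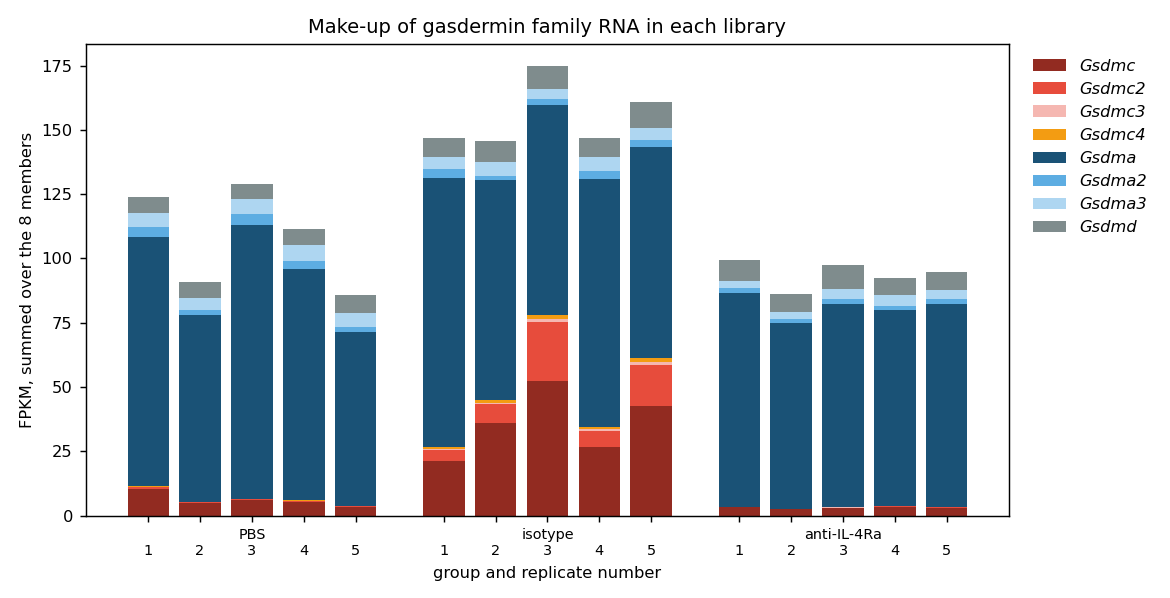
FPKM of each gasdermin gene (vertical axis), stacked for each of the 5 libraries of the PBS, isotype and blockade groups. The Gsdmc cluster, in red and orange, fills 18.2% to 44.7% of the bar in the isotype libraries and at most 9.28% in the others, while Gsdma in dark blue is of like height throughout.

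In bulk tissue, fewer cells of a type and less RNA per cell cannot be told apart, and the makeup of the tissue differed between libraries. Library totals ran from 48622246 to 87745024 counts. Conjunctival and corneal epithelial markers (11 of 11 detected, such as Krt5, Krt14 and Pax6) summed to 13500 to 16750 CPM in PBS, 13960 to 17960 in isotype and 11270 to 15420 under blockade, and the epidermal markers Krt1 and Krt10 with 5 others to 15760 to 23930, 15700 to 21450 and 11860 to 18400 CPM, so skin-type RNA was present in every library. Lacrimal acinar markers (7 of 7) ran from 134 to 27310 CPM in PBS, 166 to 17410 in isotype and 698 to 75510 under blockade. Hair follicle markers (9 of 10 matched) summed to 787 to 1598 CPM in 4 isotype libraries and 10780 in the other, replicate 2. Leukocyte markers (9 of 9) summed to 218 to 254 CPM in PBS, 240.5 to 456 in isotype and 218 to 371 under blockade. No marker of these lists was at 0 in all libraries.

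Between groups, 5 of the 9 leukocyte markers were called higher in isotype than in PBS, where 9.53% of all genes were. Gsdmd was higher in the same comparison, and the part of leukocytes in that difference was not tested. Of the 11 epithelial markers only Krt14, a basal keratin, was called higher in isotype than in PBS, by 0.55 log2 units (SE 0.11, adjusted p = 0.00694). Under blockade against isotype, Krt14 and Trp63 fell and Krt12 and Pax6 rose among the same 11, where 8.13% of all genes were called lower and 6.73% higher. Krt12 was at 12.3 ± 19.55 CPM under blockade and 1.04 ± 0.263 in isotype (SD), and the groups overlapped. Of 7 skeletal muscle markers, 5 were called lower in isotype than in PBS, where 7.49% of all genes were. The part of these tissues in the values of the Gsdmc genes was not tested. The fits that follow cannot decide it, because the epithelial score holds Krt14, Trp63, Krt12 and Pax6, which themselves differed between groups. With a lacrimal acinar score as covariate, the log2 fold change of Gsdmc was 2.79 for isotype against PBS and -3.32 for blockade against isotype, and with an epithelial score it was 2.74 and -3.62. For blockade against PBS it went from -0.98 to -0.53 with the lacrimal score (adjusted p = 0.4004) and to -0.88 with the epithelial score. For Gsdmd the isotype against PBS value was 0.43 and 0.49 with the same covariates. Without any 1 library, including isotype replicate 2, Gsdmc stayed at 2.41 to 2.87 for isotype against PBS and at -3.70 to -3.39 for blockade against isotype.

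The genes around each locus were taken by position alone and were tested. The 4 nearest protein-coding genes on each side of the Gsdmc cluster, the Gsdma cluster and Gsdmd were taken, 24 in all, of which 19 had enough counts. For isotype against PBS, 2 of the 19 rose and 2 fell, where 9.53% of all genes were called higher and 7.49% lower. For blockade against isotype 2 rose and 0 fell, where the shares were 6.73% and 8.13%, and for blockade against PBS 1 rose and 1 fell, where they were 2.28% and 1.44%. With 19 genes, these counts are near the shares of all genes. Their median log2 fold change was 0.02, 0.03 and 0.02 in these comparisons, next to medians within 0.02 of 0 over all genes tested.

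Beside the Gsdmc cluster, Fam49b, a regulator of Rac1 signaling that lies 16800 bases beyond Gsdmc4, rose in isotype against PBS by 0.39 log2 units (SE 0.08, edgeR adjusted p = 0.00715). It went from 26.7 ± 0.432 to 35.0 ± 4.96 CPM (SD, n = 5 each), and all isotype libraries were above all PBS libraries. Asap1, an Arf GTPase-activating protein 174560 bases away, rose by 0.29 (SE 0.09, adjusted p = 0.0458), a call that held in 4 of 15 fits with 1 library left out. Myc, the nearest protein-coding gene on the other side at 1785594 bases, was at 54.3, 55.2 and 53.7 CPM in PBS, isotype and blockade and was not called in any comparison. Fam84b, beyond Myc, was higher under blockade than with isotype by 0.36 (SE 0.09, adjusted p = 0.0204), a call lost without isotype replicate 2 or 3 or blockade replicate 1, and than in PBS by 0.37 (SE 0.09, adjusted p = 0.0374), a call that held in 6 of 15 such fits. The changes of these neighbors were thus smaller than 0.4 on the log2 scale.

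Beside the Gsdma cluster, Thra, a thyroid hormone receptor, fell in isotype against PBS by 0.37 log2 units (SE 0.05, adjusted p = 0.000742), with all isotype libraries below all PBS libraries. Its end overlaps Nr1d1 on the other strand, and reads of the pair cannot be told apart where strand was not used. It was higher under blockade than with isotype by 0.18 (SE 0.05, adjusted p = 0.0259, held in 9 of 15 fits with 1 library left out), and lower than in PBS, at -0.185 (SE 0.05, adjusted p = 0.0488, held in 2 of 15). Ormdl3, which neighbors the Gsdma genes, had log2 fold changes of -0.03 (SE 0.05) and 0.12 (SE 0.05) in the first 2 comparisons and was not called. Beside Gsdmd, Mafa, a transcription factor, fell in isotype against PBS by 0.78 (SE 0.16, adjusted p = 0.00709), from 13.2 ± 3.07 to 7.69 ± 1.19 CPM, while the nearest genes Zc3h3 and Mroh6 were at 0.07 (SE 0.04) and 0.06 (SE 0.11) and were not called.

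**Figure D4:**
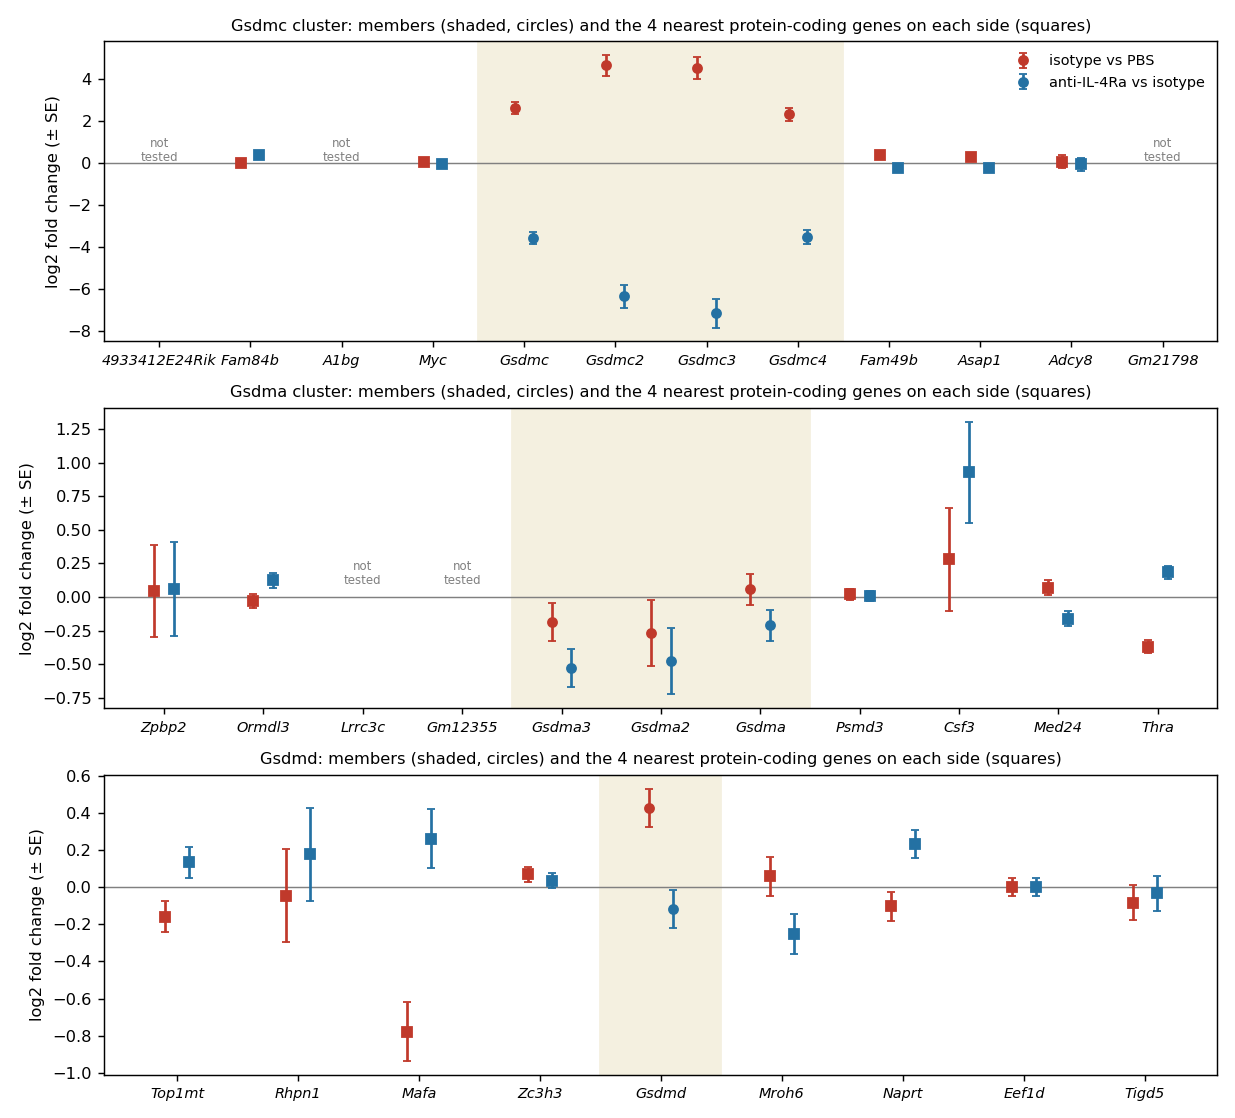
Log2 fold change with its standard error (vertical axes differ between panels) of each gasdermin and of the 4 nearest protein-coding genes on each side, in order along the chromosome, for isotype against PBS (red) and blockade against isotype (blue). At the Gsdmc cluster the 4 members range from 2.31 to 4.63 and from -7.14 to -3.53, whereas the neighbors tested lie within 0.4 of 0.

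Sequence directly upstream of the annotated start was held for 2 of the 8 members, Gsdmc3 and Gsdma3, 1 from each cluster, and is shown because these members differed across the groups in unlike ways. The RefSeq promoter table (GRCm38.p6) gave the 250 bases before the start on the strand of the gene, minus for Gsdmc3 (chr15:63878559-63878808) and plus for Gsdma3 (chr11:98626099-98626348). Capitals mark overlapping copies of TATA in the last 40 bases.
Gsdmc3: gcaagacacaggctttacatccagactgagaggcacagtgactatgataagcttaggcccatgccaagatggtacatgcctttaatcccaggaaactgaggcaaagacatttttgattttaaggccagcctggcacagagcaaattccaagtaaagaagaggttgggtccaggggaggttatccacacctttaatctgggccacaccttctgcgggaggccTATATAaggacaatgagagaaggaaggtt
Gsdma3: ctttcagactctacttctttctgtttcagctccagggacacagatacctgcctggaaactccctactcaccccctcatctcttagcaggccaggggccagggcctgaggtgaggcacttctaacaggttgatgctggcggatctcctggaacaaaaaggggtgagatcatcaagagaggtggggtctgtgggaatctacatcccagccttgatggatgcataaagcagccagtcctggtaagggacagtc
The windows were searched for TTCNNNNGAA, the spaced form that Stat6 is known to bind, for TTCNNNGAA, the form of other Stat proteins, and for TATA in the last 40 bases, all of which read the same on both strands. Neither spaced form was present in either window, where 5.85% and 7.02% of 32851 RefSeq promoters held them. TATA was present for Gsdmc3 and not for Gsdma3, and in 7.63% of all promoters. These are matches of letters in short windows and say nothing of binding.

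Other genes of the gasdermin pathway, and IL-4 and IL-13 signaling as the target pathway of the antibody, were followed in 7 lists. They held 48 genes, 45 of them tested. The 12 genes of the IL-4 and IL-13 list are part of every total here. They gave 5 of the rises and the 1 fall for isotype against PBS, and 5 of the 9 falls for blockade against isotype. For isotype against PBS, 16 of the 45 rose and 1 fell, where 9.53% of all genes were called higher and 7.49% lower, with a median log2 fold change of 0.21 against -0.01 for all genes tested. For blockade against isotype, 1 rose and 9 fell, where 6.73% of all genes were called higher and 8.13% lower, with a median of -0.23 against 0.01. For blockade against PBS, 2 rose and 3 fell, where 2.28% and 1.44% of all genes did, with a median within 0.01 of 0 in the lists and over all genes. The lists were set with earlier results of these data known, and nothing is claimed for them beyond these counts.

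Of the gasdermins outside the set, Gsdme was at 1.15 ± 0.233, 1.35 ± 0.180 and 0.920 ± 0.212 CPM in PBS, isotype and blockade. The fit gave 0.23 log2 units (SE 0.17, adjusted p = 0.397) for isotype against PBS and -0.55 (SE 0.18, adjusted p = 0.0512) for blockade against isotype. Neither passed the test in edgeR. DESeq2 gave an adjusted p of 0.0243 for blockade against isotype, a comparison for which no data were simulated. In edgeR that comparison passed without PBS replicate 5, isotype replicate 1 or blockade replicate 3. Pjvk, a gasdermin relative known from hearing, had 0 to 5 counts per library and was not tested.

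Among proteases that cut gasdermins, Gzmb, a granule protease of cytotoxic lymphocytes, rose in isotype against PBS by 3.49 log2 units (SE 0.39, adjusted p = 0.000344), from 0.270 ± 0.0673 to 3.05 ± 2.06 CPM. Ctsg, a protease of neutrophils and mast cells, rose by 2.28 (SE 0.43, adjusted p = 0.00472) at levels under 1 CPM. The inflammatory caspases that cut Gsdmd, Casp1 and Casp4 (mouse caspase-11), were at -0.15 (SE 0.09, adjusted p = 0.267) and 0.05 (SE 0.14, adjusted p = 0.833), and Casp8, an apical caspase that can cut Gsdmc, was at 0.18 (SE 0.08, adjusted p = 0.154). These 3 were not called.

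Under blockade against isotype, Gzmb fell by 1.60 log2 units (SE 0.35, adjusted p = 0.0147) to 1.002 ± 0.219 CPM, with overlap between the groups. Casp1, Casp4 and Casp8 were at -0.03 (SE 0.09), 0.02 (SE 0.14) and -0.23 (SE 0.08) and were not called, although Casp8 passed, at an adjusted p of 0.0246, without blockade replicate 3.

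Inflammasomes are the platforms on which caspase-1 is activated. Of their 12 sensors and adaptors tested, 6 rose in isotype against PBS, where 9.53% of all genes were called higher. Nlrp3 rose by 1.30 (SE 0.26, adjusted p = 0.00694), Naip5, a sensor of bacterial flagellin, by 0.94 (SE 0.22, adjusted p = 0.0125), and Nlrp1b by 0.91 (SE 0.24, adjusted p = 0.0199), the last not without isotype replicate 3. Mefv, which encodes pyrin, rose by 0.84 (SE 0.27, adjusted p = 0.0478), a call that held in 3 of 15 fits with 1 library left out. Only Nlrp3 was called for blockade against isotype, where it fell by 0.84 (SE 0.26, adjusted p = 0.0446, held in 2 of 15 fits). In that comparison 8.13% of all genes were called lower. Levels were low, at 1.14, 2.81 and 1.57 CPM for Nlrp3 in PBS, isotype and blockade.

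Of 6 genes for the cargo of the pores and the later steps, Il1b rose by 2.02 (SE 0.39, adjusted p = 0.00547) in isotype against PBS, from 4.35 ± 1.02 to 17.7 ± 8.74 CPM, and fell by 1.81 (SE 0.39, adjusted p = 0.0130) under blockade, to 5.05 ± 2.09 CPM. Ninj1, which ruptures the plasma membrane after pores have formed, rose by 0.41 (SE 0.07, adjusted p = 0.00373) in isotype and was also higher under blockade than in PBS, by 0.35 (SE 0.07, adjusted p = 0.0295, held in 9 of 15 fits with 1 library left out). The levels of Ninj1 were 26.7 ± 1.61, 35.5 ± 3.84 and 33.9 ± 2.43 CPM in PBS, isotype and blockade, the same order as Gsdmd. Of 5 membrane repair genes, 0 were called for isotype against PBS, where 9.53% of all genes were called higher and 7.49% lower. Among them, Chmp3 was higher under blockade than with isotype by 0.13 (SE 0.04, adjusted p = 0.0375, held in 8 of 15). Irf1 and Irf2, factors known to act on Gsdmd, were at 0.15 (SE 0.13) and -0.00108 (SE 0.06) for isotype against PBS and were not called.

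In the IL-4 and IL-13 list, 5 of 12 genes rose and 1 fell in isotype against PBS, and 5 fell under blockade against isotype. Over all genes, 9.53% were called higher and 7.49% lower in the first comparison, and 8.13% lower in the second. The cytokines Il4 and Il13 rose by 1.74 (SE 0.43, adjusted p = 0.0166) and 1.30 (SE 0.27, adjusted p = 0.00717), both under 1 CPM. Il4ra, the target of the antibody, was at 64.1 ± 13.3, 107 ± 33.4 and 51.4 ± 14.8 CPM in PBS, isotype and blockade. It rose by 0.74 (SE 0.22, adjusted p = 0.0342, held in 8 of 15 fits with 1 library left out) and fell by 1.06 (SE 0.22, adjusted p = 0.0119), with all blockade libraries below all isotype libraries.

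Feedback genes of the same pathway moved in part alike. Socs1, an inhibitor of cytokine signaling, rose by 0.81 (SE 0.16, adjusted p = 0.00647) in isotype and fell by 0.80 (SE 0.16, adjusted p = 0.00993) under blockade. Cish, a related inhibitor, fell by 0.73 (SE 0.10, adjusted p = 0.00168) under blockade against isotype and, by 0.48 (SE 0.10, adjusted p = 0.0302, held in 10 of 15 fits), against PBS. Il2rg, the common gamma chain, rose by 0.85 (SE 0.19, adjusted p = 0.01001) in isotype. Il13ra2, a decoy receptor, fell by 0.54 in isotype against PBS (SE 0.15, adjusted p = 0.0295, not without PBS replicate 1 or 5 or isotype replicate 2 or 3), and by a further 0.78 (SE 0.16, adjusted p = 0.00983) under blockade.

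**Figure D5:**
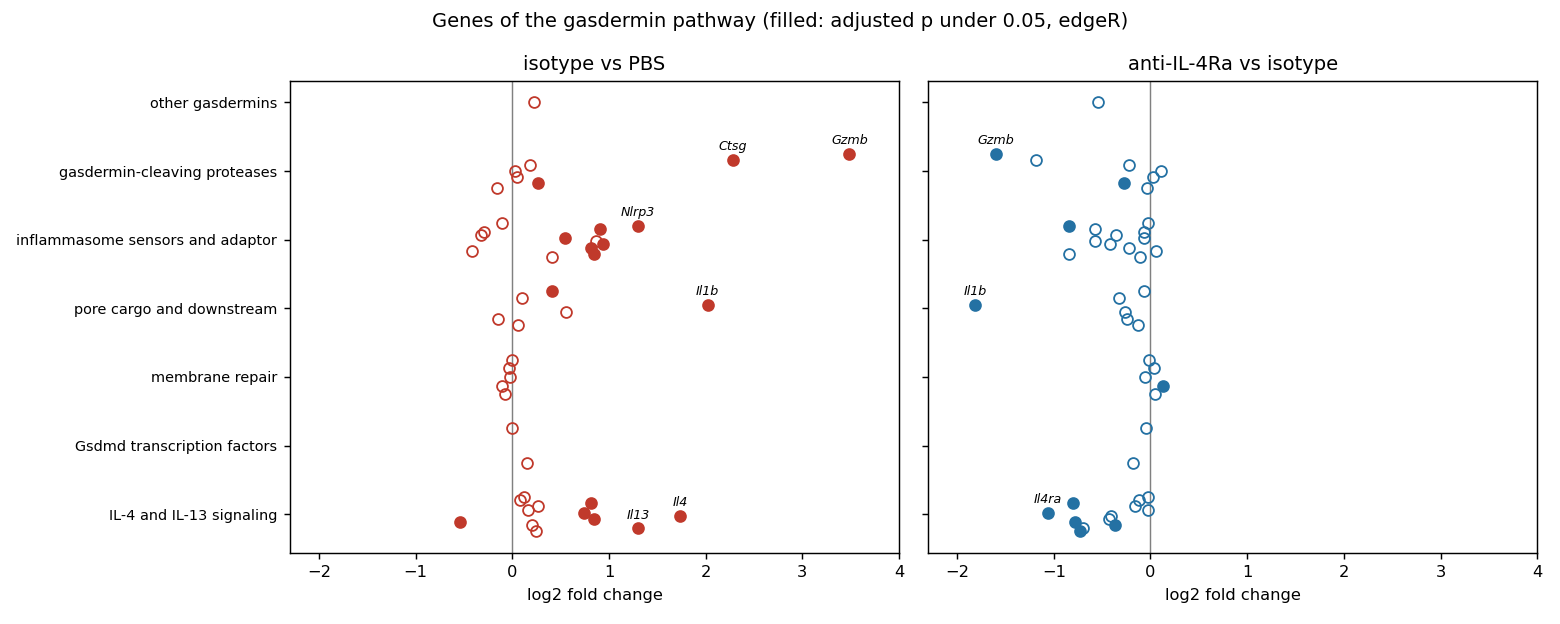
Log2 fold change (horizontal axis) of 45 genes in 7 lists, the gasdermin pathway and IL-4 and IL-13 signaling. Isotype against PBS is on the left and blockade against isotype on the right, with filled points for an adjusted p under 0.05 in edgeR. On the left 16 points are filled above 0 and 1 below, and on the right 9 are filled below 0 and 1 above.

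The genes whose levels followed the summed counts of the 4 Gsdmc genes most closely over the 15 libraries included several known from epithelium. By Pearson's r of log2 CPM they were Sprr2a2 (0.98), Klk6 (0.98), Sprr2a3 (0.97), Sprr2a1 (0.97), Stfa1 (0.97), Chil4 (0.97), Krt14 (0.96), Map3k14 (0.96), Has3 (0.96) and BC117090 (0.96). The libraries fall into groups and share their depth and tissue mix across genes, so r carries differences between groups, and after centering within groups it was 0.68 to 0.88. The Sprr2a genes encode cornified envelope proteins, Klk6 a kallikrein protease, Stfa1 a cysteine protease inhibitor, Has3 a hyaluronan synthase and Map3k14 the NF-kB-inducing kinase. The Sprr2a genes are also near copies of one another.

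Each of the 10 had its highest mean in the isotype group, which follows from their choice by r with the cluster. Stfa1 was low throughout, at 0.0674, 0.429 and 0.05005 CPM in PBS, isotype and blockade. Sprr2a2 was at 57.7, 745 and 15.9 CPM in PBS, isotype and blockade, Klk6 at 72.7, 206 and 60.8 CPM, and Chil4, a chitinase-like gene, at 0.0282, 115.7 and 0.00774 CPM. Krt14 was the most abundant, at 3182, 4664 and 2775 CPM. Other members had other companions: P2rx1 (0.95), Apbb1ip (0.94) and Plekho1 (0.94) for Gsdmd, Krt79 (0.94), Bnip3l (0.94) and Mroh6 (0.90) for Gsdma, and Ift43 (0.93), Hdac4 (0.89) and H2-M5 (0.88) for Gsdma3. P2rx1 and Apbb1ip are known from platelets and leukocytes, and Krt79 from sebaceous and hair follicle ducts.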

How the data were processed

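The values that the authors deposited are estimated counts from RNA-Seq of 15 libraries, prepared with a stranded mRNA kit. Per the labels and methods, reads were filtered at a quality score of 20 and aligned (unique hits) in Omicsoft Array Studio, with the B38 genome and Ensembl release 100. The way reads were assigned and the use of strand are not given in the sources used here. Totals were 48622246 to 87745024 per library, unscaled for depth. The methods of the paper report 2 outlier samples without saying which they were, and all 15 libraries were fitted here. Estimated counts were rounded to whole numbers, and genes were kept at 10 counts or more in 5 or more libraries (19006 genes), then fitted in edgeR 4.0.16 (TMM factors, quasi-likelihood test, 1 model over 3 groups, two-sided, Benjamini-Hochberg adjustment over all genes tested). SE is the log2 fold change over the square root of F. CPM used TMM factors, log2 CPM for correlations a prior count of 2, and FPKM exon lengths of GENCODE M21 (GRCm38), which matched 55141 of 55487 gene identifiers. Coding identity was computed with Biopython 1.88, and a value was called fractional when more than 0.01 from a whole number.

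Groups and replicate numbers came from the labels. The sample titles give each library its own mouse number, though separate animals are not stated outright. The p-values measure the spread between these libraries. The fits were tested on data simulated for isotype against PBS with the spread that edgeR estimated. Of the calls, 6 of 194 were false in edgeR, 42 of 230 in DESeq2 and 11 of 192 in the linear model on log2(CPM + 1). Alternatives were upper quartile factors, DESeq2 1.42.0, linear models on log2(FPKM + 1) and log2(CPM + 1) in limma 3.58.1, no filter, filterByExpr, 2 groups only, a replicate block, marker score covariates and leaving out each library. The members and lists were chosen with earlier results of these data known. Genes named were all members, Gsdme, Pjvk, Casp1, Casp4, Casp8 and Il4ra, the called genes of each list in the first 2 comparisons (at most 4 each, by size), called neighbors, and the 10 or 3 genes with the highest r. Myc, Ormdl3, Zc3h3, Mroh6, Irf1, Irf2, Nr1d1 and the tissue markers Krt12, Pax6 and Trp63 were added after their values were seen. A gene of the protease list is counted in the totals over the pathway lists but is not reported here.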

Additional observations from a re-analysis of the deposited data

Results flagged for a closer look

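Within single groups of 5 libraries, 2 of 27 sets of values (9 gasdermins in 3 groups) had 1 library far from the other 4 by Dixon's criterion, which chance meets in about 1 in 20 groups. Gsdmc2 in blockade replicate 4 was at 0.621 CPM, where the other 4 libraries of the group held 0.230 to 0.302 CPM. Gsdmc4 in PBS replicate 1 was at 0.911 CPM, where the other 4 held 0.294 to 0.462 CPM. The same PBS library was the highest of its group in Gsdmc, Gsdmc2 and Gsdmc3. Without any 1 library, the log2 fold change of Gsdmc2 for blockade against isotype stayed between -6.67 and -5.92, and that of Gsdmc4 for isotype against PBS between 2.15 and 2.65.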

How the results depend on the processing

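The 5 members called for isotype against PBS stayed 5 in number under all 25 alternatives, and for blockade against isotype the number was 4 or 5. For blockade against PBS, where 1 was called, it was 7 with DESeq2, 2 with only 2 groups fitted, 0 with a lacrimal acinar score as covariate, and 0 to 2 without 1 library (0 without PBS 1 or 4 or blockade 1, 2 or 5, and 2 without PBS 5 or isotype 1). Shares of all genes called were not taken under the alternatives, so these counts have no background beside them. Linear models with a pseudocount of 1 (FPKM, then CPM) shrank the low genes. For isotype against PBS Gsdmc2 went to 2.87 and 3.5, Gsdmc3 to 0.76 and 1.32 and Gsdmc4 to 0.81 and 1.19. For blockade against isotype they went to -3.21 and -4.11, -0.81 and -1.42, and -0.98 and -1.49, and for blockade against PBS to -0.35 and -0.61, -0.0427 and -0.0965, and -0.17 and -0.30. Without blockade replicate 3, which holds 2 of the 3 counts, Gsdmc3 went to -8.02 against isotype.

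Pathway genes called for isotype against PBS (17) numbered 12 to 19 without 1 library. For blockade against isotype (10) there were 4 with only 2 groups fitted, 6 with the lacrimal score and 6 to 16 without 1 library (6 without isotype 2, 3 or 5 or blockade 1, 16 without isotype 1 or blockade 3). For blockade against PBS (5) there were 3 in each linear model, 1 with the lacrimal score and 1 to 7 without 1 library (1 without PBS 1, 2 or 4, 3 without PBS 3 or blockade 1, 2 or 5). Neighbors called numbered 3 to 4 for isotype against PBS without 1 library. For blockade against isotype (2) there were 6 with DESeq2, 1 without the filter, 0 with 2 groups, 0 with the lacrimal score, 5 with the epithelial score and 0 to 7 without 1 library (0 without isotype 2 or 3 or blockade 1, 1 without isotype 5 or blockade 2 or 4, 4 without isotype 4, 5 without isotype 1, 7 without blockade 3). For blockade against PBS (2) there were 4 with DESeq2, 1 and 0 in the FPKM and CPM linear models, 0 without the filter, with 2 groups, with the replicate block or with either score, and 0 to 3 without 1 library (0 without any PBS library or blockade 1, 2, 4 or 5, 1 without isotype 1, 3, 4 or 5). The causes were not tested. Values near 0 changed sign: Casp1 for blockade against isotype was 0.0602 with the lacrimal score and -0.122 to 0.0142 without 1 library, and Casp4 was -0.0374 to 0.101 for isotype against PBS and -0.0625 to 0.111 for blockade against isotype.

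Replicate numbers did not pair the samples: over 15 same-numbered pairs the correlation of deviations was -0.38 to 0.45, and above 0.1 in 4. With the replicate number as a block, 5, 5 and 1 members, 15, 7 and 4 pathway genes and 3, 2 and 0 neighbors were called in the 3 comparisons. Among the genes named in the report, calls lost with this block included Asap1, Il4ra and Mefv for isotype against PBS, Chmp3, Nlrp3 and Thra for blockade against isotype, and Fam84b and Thra for blockade against PBS. With only the 2 groups of a comparison fitted, these calls other than Il4ra were lost, and further losses included Gsdma3, Fam84b, Gzmb and Il1b for blockade against isotype. Libraries of 1 group differed beyond counting error in all 30 pairs (chi-square per degree of freedom 19.5 to 1074). Depth limits Gsdmc3 and Gsdmc4, which had at most 15 counts in any blockade library.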
